A study of Caenorhabditis elegans with 4 samples.

Results

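Beside the 1539 peaks of the combined list, the embryonic GEI-11 profiles hold a second set of peaks that both ChIP replicates found and that the combined list does not contain. They were chosen by rank and overlap, as peaks ranked 1 to 5000 in replicate 1 that overlapped a peak ranked 1 to 5000 in replicate 2 by at least 1 bp and met no combined peak. The rule, applied to the 5 autosomes and X, gave 570 peaks of the 30000 listed for replicate 1. They are called the replicated peaks outside the combined list, or outside peaks. Whether they are bound by GEI-11 itself was not tested.

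GEI-11, or SNPC-4, has Myb domains and is the largest subunit of the complex that activates transcription of small nuclear RNA genes. In Caenorhabditis elegans it also acts at spliced-leader RNA genes and at piRNA genes, most of which lie in broad domains of chromosome IV. A ChIP-seq peak caller ranks enriched regions by strength, and a reproducibility filter keeps those whose ranks agree between replicates.

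All samples came from hermaphrodite embryos of strain OP179, with genotype unc-119(ed3) III and the transgene wgIs179, in which gei-11 carries TY1, EGFP and 3xFLAG tags beside an unc-119(+) marker. The transgene entered by bombardment as an added copy, and the genotype lists no change at the native gei-11 gene. Chromatin was precipitated with antibodies against GFP in 2 ChIP samples, and 2 input samples held DNA from the same extracts. All 3 peak lists are on build WS220, read depth is unknown, and the labels do not say whether the replicates were separate cultures. Gene names and sequence at the peaks were not used here.

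Replication among the top peaks was common, but mostly inside the combined list. Of 4975 replicate 1 peaks of rank 1 to 5000 on the autosomes and X, 2030 were overlapped by such a peak of replicate 2, which is 40.8%. Of these, 1460 lay in the combined list and 570 outside it. Among the 3440 peaks outside the combined list the replicated share was 16.6%. The other 2870 are called unreplicated peaks, although overlap with replicate 2 peaks ranked past 5000 was not counted. These shares were set by the rule and support nothing further. For scale, the replicate 2 peaks of rank 1 to 5000 covered 1.91% of the chromosome span, and a 396 bp interval that met no combined peak would touch one of them from 2.77% of its possible starts.

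The outside peaks were weaker than the replicated combined peaks in both replicates, which the rank limit and the exclusion of the combined list largely set. In replicate 1 their ranks ran from 767 to 4982 with a median of 2791. In replicate 2 the best overlapping peak ranked 495 to 4961, with a median of 2692.5. The replicated combined peaks had median ranks of 819.5 and 768, the first of which lay among 1154 peaks tied at the top score of replicate 1. Outside peaks favoured neither replicate, as 290 ranked better in replicate 1 and 280 in replicate 2. All 570 were 396 bp wide, the commonest width, as were 88.4% of the replicated combined peaks. Of the 772 replicated combined peaks with a worse rank in the same range as the outside peaks, 771 (99.9%) had that width too.

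**Figure D1:**
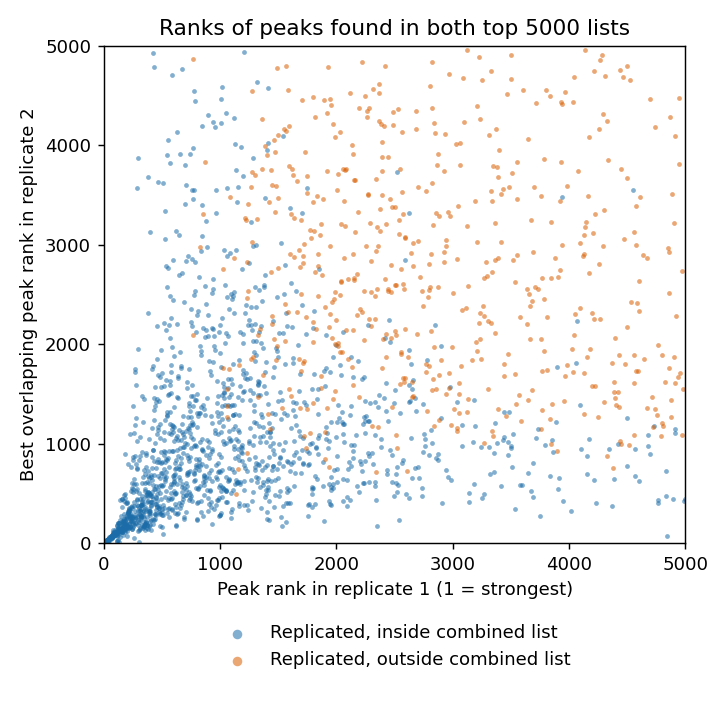
Rank in replicate 1 (horizontal axis) against the best rank among overlapping peaks in replicate 2 (vertical axis), 1 point per replicated peak, for 1460 peaks inside and 570 outside the combined list. Combined peaks fill the corner of low ranks and extend along both axes, while outside peaks take the interior, with 19 of 570 having a rank of 1000 or better in either replicate.

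Few outside peaks had a high rank in either list, which the removal of the combined list largely fixed. A total of 19 (3.33%) had a rank of 1000 or better in at least 1 replicate, against 1129 of 1460 replicated combined peaks (77.3%). In replicate 1 the top score was shared by 1154 peaks, which peak number alone ordered. There the limit of 1000 thus split peaks of equal score. In replicate 2 the tie at the top held 681 peaks. The worse of the 2 ranks separated the sets less sharply. At a worse rank of 1001 to 1500 there were 8 outside peaks and 262 combined ones. At 2501 to 3000 the numbers were 94 and 88, and at 4501 to 5000 they were 87 and 27. In that last range the better rank had a median of 732 for combined peaks and 2515 for outside peaks. Combined peaks with a poor rank in 1 replicate thus mostly had a good rank in the other, and outside peaks mostly did not.

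The replicates did not order the outside peaks alike, nor the combined peaks once the best-ranked of them were left out. Across the 570 peaks, the Spearman correlation between the ranks was -0.09, and across the 1460 replicated combined peaks it was 0.54. Of those 1460, 946 had the tied top score of replicate 1 and 664 that of replicate 2. Within these ties peak number alone set the rank, yet its order was shared by the replicates. For the 356 combined peaks with a worse rank of 1 to 500, inside both ties, the 2 ranks differed by a median of 35. What peak number stands for was not tested. The range of ranks also bears on the contrast between -0.09 and 0.54. Across the 680 combined peaks whose rank in each replicate was no better than the best outside peak, the correlation was -0.16. Across the 772 combined peaks with a worse rank in the same range as the outside peaks, it was -0.51. Both sets still ranked better than the outside peaks. The median worse rank was 1900.5 for the 680 and 1994.5 for the 772, against 3524 for outside peaks. The choice by rank shapes all of these correlations, which are across peaks of the same 2 libraries and are given as descriptions. Leaving out the 31 outside peaks within 1 kb of a combined peak gave -0.10, while rank limits of 3000 and 10000 gave 0.036 and 0.030.

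Matched outside peaks lay farther apart between the replicates than matched combined peaks. The median distance between midpoints was 89.5 bp for outside peaks, with quartiles of 39 and 176.8 bp. For the replicated combined peaks the median was 28 bp, and for the 772 of them with a worse rank in the same range as the outside peaks it was 39 bp. Midpoints within 50 bp of each other were found for 180 outside peaks (31.6%) and for 453 of those 772 (58.7%). Midpoints over 200 bp apart were found for 119 outside peaks (20.9%) and for 53 of the 772 (6.87%). Since overlap was part of the rule, these distances carry no test.

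The offset was greatest among the best-ranked outside peaks. At a worse rank of 1001 to 1500 the median offset was 237 bp for the 8 outside peaks and 40 bp for combined peaks. At 1501 to 2000 it was 168.5 bp for 30 outside peaks and 32.5 bp for combined peaks. From 2001 to 5000 the medians per 500 ranks lay between 72 and 105 bp for outside peaks and between 30.5 and 67 bp for combined peaks. The outside value was the higher in each of the 8 ranges that held both. These ranges match the worse rank only, and the better rank still differed between the sets. Its median was 749.5 for combined and 1057 for outside peaks at 1001 to 1500, and 732 and 2515 at 4501 to 5000.

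**Figure D2:**
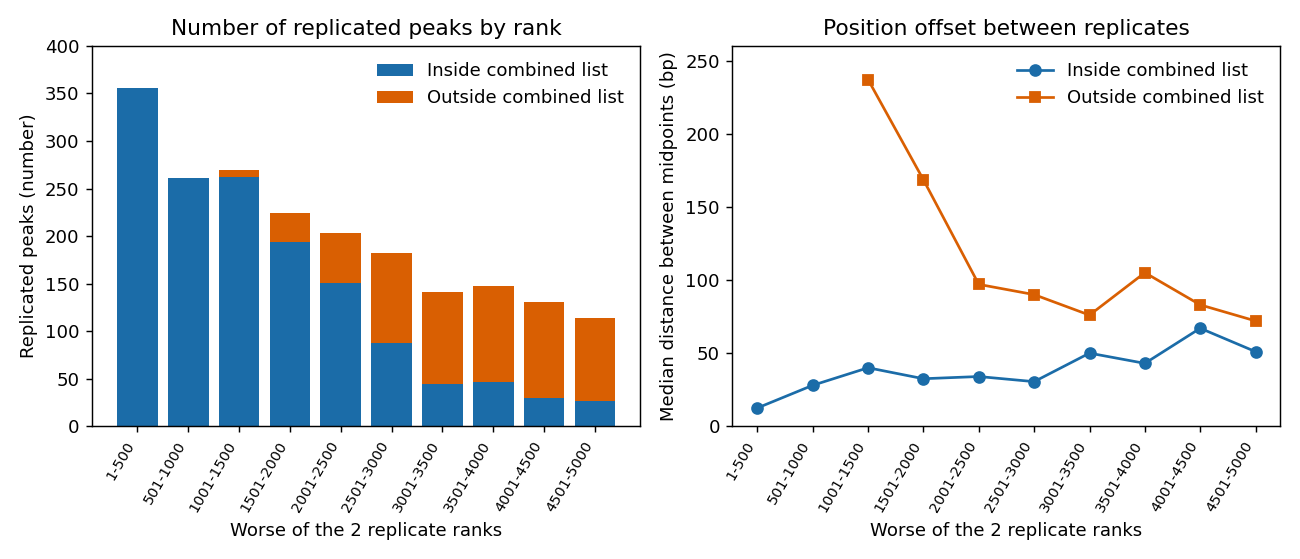
Left, number of replicated peaks inside and outside the combined list, stacked, by the worse of the 2 replicate ranks in steps of 500. Right, median distance in bp between the midpoints of the matched replicate peaks in the same steps, where outside peaks start at 237 bp and stay above combined peaks throughout.

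The 10 outside peaks with the best worse rank are given with positions on WS220. The first, on chromosome III at 7815796 to 7816191, ranked 1133 in replicate 1 and 495 in replicate 2. It touched 2 peaks of replicate 2, its midpoint was 336 bp from that of the better one, and it lay 536 bp from a combined peak. It was the one outside peak that had the highest score of both lists. Its offset was one of the 119 over 200 bp.

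The second, on IV at 15646545 to 15646940, ranked 1158 and 750 in replicates 1 and 2 and lay 2222 bp from a combined peak. The third, on II at 8419257 to 8419652, ranked 1235 and 913. The fourth, on X at 992757 to 993152, ranked 1058 and 1273. These 3 had midpoints 177, 287 and 248 bp from their partners, so a large offset was shared by the 4 best.

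The fifth, on II at 6348410 to 6348805, ranked 1056 and 1384. The sixth, on I at 8124505 to 8124900, ranked 1411 and 1302. The seventh, on V at 3740046 to 3740441, ranked 1428 and 1153 and lay 307 bp from a combined peak. The seventh was, after the first, the only one of the 10 within 1 kb of a combined peak.

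The eighth, on I at 6745204 to 6745599, ranked 1328 and 1466. The ninth, on X at 11522060 to 11522455, ranked 1534 and 1363 and lay 83184 bp from a combined peak. The tenth, on I at 7021215 to 7021610, ranked 1057 and 1553. The ninth was the closest match of the 10, with midpoints 61 bp apart, and the other 9 had offsets of 157 to 336 bp.

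The rank limit cut through a gradual series. The last 5 peaks inside it had worse ranks of 4957 to 4982, and the first 5 past it had 5005 to 5016. Their other ranks ran from 1093 to 4136 inside and from 1380 to 4796 past the limit. In replicate 1 the score was 0.678 at the last outside peak and 0.677 at the first one past the limit. The files give no unit for this score of the authors, which ranks peaks within a list only. Nothing in these values marks an end to the set.

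In the outside set, 14 peaks had the highest score of replicate 1, shared by 1154 peaks there, and 1 had the highest score of replicate 2, shared by 681. Among replicated combined peaks 946 and 664 did. The 14 ranked 495 to 4873 in replicate 2, a range bounded by the rank limit. They are what was left after the removal of the combined list, which held the 946. How a top score in 1 replicate goes with rank in the other therefore cannot be read from the 14.

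Outside peaks were spread over the chromosomes differently from the combined list. Chromosome I held 113 of them (19.8%, 95% exact interval 16.6 to 23.3%), against 230 of 1539 combined peaks (14.9%, 13.2 to 16.8%). X held 106 (18.6%, 15.5 to 22.0%) against 22.0%, and V held 78 (13.7%, 10.97 to 16.8%) against 15.3%. II held 77 (13.51%), III held 99 (17.4%) and IV held 97 (17.02%). The 2 distributions over 6 chromosomes differed in a chi-square test (13.9, 5 degrees of freedom, p = 0.0166). The call did not hold with a rank limit of 3000 (chi-square p = 0.207), without the stretch of X from 14 to 17 Mb (0.0548) or for all replicate 1 peaks outside the combined list (0.102).

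Chromosome I was the one chromosome that passed a test of its own. Its share was 4.88 points above that of the combined list (95% Newcombe interval 1.29 to 8.74 points, two-sided Fisher's exact test, Benjamini-Hochberg adjusted p = 0.0472 over 6 chromosomes). That call lay close to the threshold and did not hold in the same exact test with a rank limit of 3000 (adjusted p = 0.142), one of 10000 (0.0784) or reciprocal overlap of 50% (0.0549). Over all 10 alternatives tried, the exact test gave adjusted p from 0.0325 to 0.249. It also did not hold against unreplicated peaks (3.83 points, Fisher's exact adjusted p = 0.16). All tests on shares treat peaks as independent, which neighbouring peaks are not, so p-values may be too small.

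The difference in the share on X from the combined list was -3.37 points, which did not pass the test (interval -7.03 to 0.58 points, Fisher's exact adjusted p = 0.158). With 14 to 17 Mb of X left out of both sets the difference on X was -0.18 points (Fisher's exact adjusted p = 0.942). That stretch was picked earlier because combined peaks are dense there, so a smaller difference without it was largely set by that choice. For V the difference was -1.65 points (-4.85 to 1.86, Fisher's exact adjusted p = 0.445), and for IV 0.06 points (-3.41 to 3.82, adjusted p = 1). For II it was -2.93 and for III 3.01 points, both at an adjusted p of 0.158. The interval for IV leaves room for shifts of over 3 points in either direction, and that for V reaches farther down than up.

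Measured per length, outside peaks were densest on I, at 7.51 per Mb, and on III, at 7.18 per Mb. They were sparsest on V, at 3.73 per Mb, and the mean was 5.69 per Mb. Chromosome V was also the sparsest for combined peaks, at 11.3 per Mb. X was the densest for combined peaks, at 19.1 per Mb, but held 5.98 outside peaks per Mb. On I there were 2.04 combined peaks for each outside peak, and on II 3.29.

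**Figure D3:**
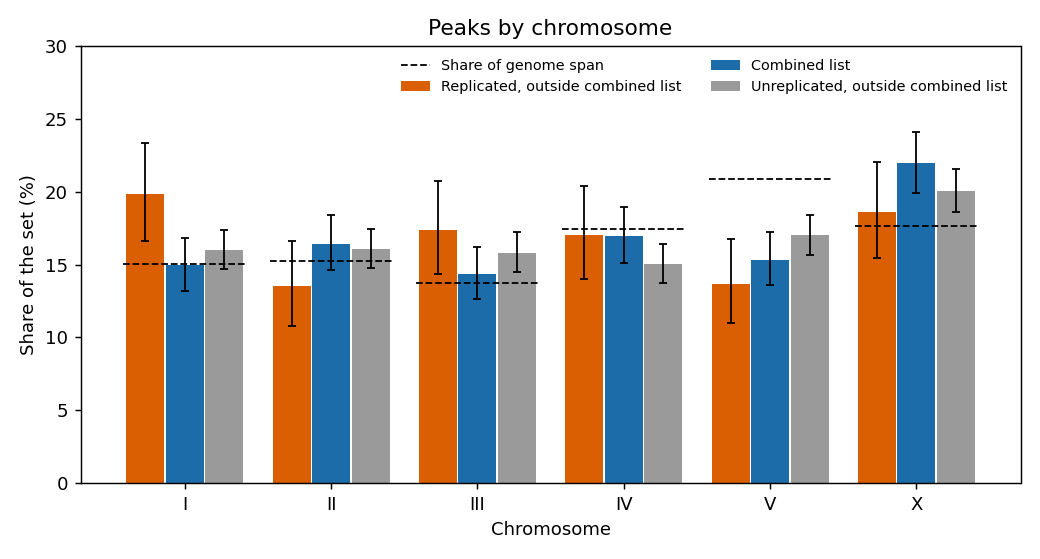
Share of each set on each chromosome in percent, for 570 outside peaks, 1539 combined peaks and 2870 unreplicated peaks, with 95% exact intervals as bars and the share of the chromosome span as dashed lines. Outside peaks stand highest on I (19.8%) and all 3 sets lie below the span on V.

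The replicated share among peaks outside the combined list also varied by chromosome. It was 19.8% on I (113 of 572), 18.3% on IV and 17.9% on III. It was 15.5% on X, 14.3% on II and 13.8% on V. The distribution of outside peaks over chromosomes differed from that of the unreplicated peaks (chi-square 11.8, 5 degrees of freedom, p = 0.0378), a comparison added with the values known. No single chromosome passed it, with Fisher's exact adjusted p from 0.16 on I to 0.455 on X.

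Within X, a larger share of outside peaks than of combined peaks lay in the middle of the chromosome. On X, 29 of 106 outside peaks (27.4%, 19.2 to 36.9%) lay in the middle one of 3 equal parts, against 52 of 338 combined peaks (15.4%, 11.7 to 19.7%). The difference was 12 points (95% Newcombe interval 3.29 to 21.8, two-sided Fisher's exact p = 0.00896). It passed when adjusted over the 3 tests of all chromosomes, autosomes and X (exact test, adjusted p = 0.0269), and just missed over the 6 single chromosomes (0.0538). It did not hold with a rank limit of 3000 (9.01 points, Fisher's exact p = 0.177) or with 14 to 17 Mb of X left out (12.3 points, 0.0545). Unreplicated peaks on X had 32.5% in the middle part, and the difference of the outside peaks from them was -5.11 points (Fisher's exact p = 0.363).

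On the autosomes the share in the middle part was 31.7% for outside peaks and 30.7% for combined peaks (difference 0.96 points, -3.91 to 6.01, Fisher's exact p = 0.723). All replicate 1 peaks outside the combined list, replicated or not, gave 5.35 points (Fisher's exact p = 0.0012). Over all chromosomes it was 30.9% against 27.4% (3.52 points, -0.79 to 7.99, Fisher's exact p = 0.115). Unreplicated peaks had 36.1% there over all chromosomes. The outside peaks thus lay between the other sets when pooled and on I, II and X, but below both on III, IV and V. Over all chromosomes their difference from the unreplicated peaks of -5.19 points did not pass after adjustment over the same 3 tests (Fisher's exact adjusted p = 0.0509). This comparison was added with the values known.

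**Figure D4:**
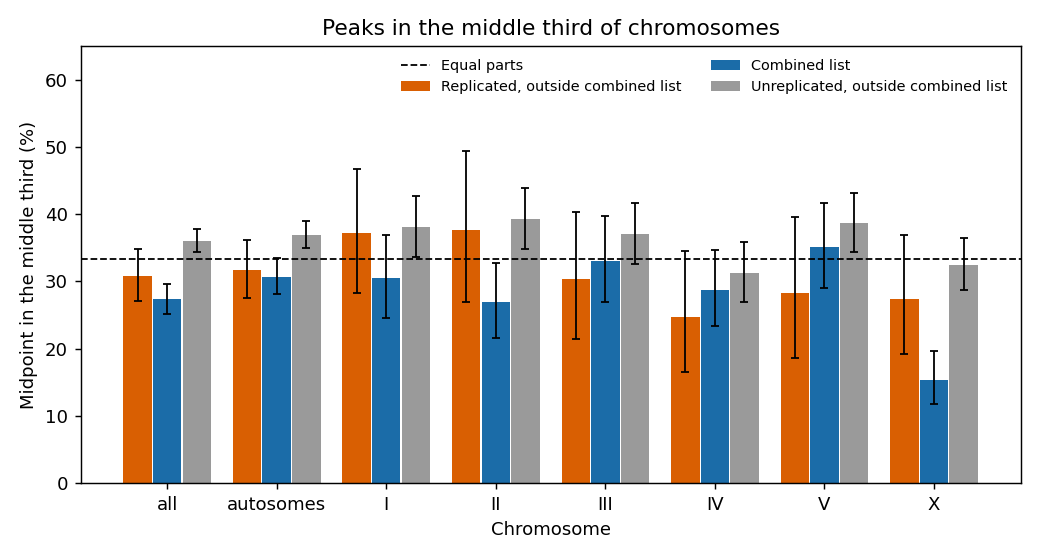
Share of peaks lying in the middle when a chromosome is cut into 3 equal parts, by midpoint and in percent, for the outside, combined and unreplicated sets, with 95% exact intervals as bars and 33.3% as a dashed line. On X the combined list stands at 15.4%, below the outside peaks (27.4%) and the unreplicated peaks (32.5%).

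The right parts of chromosomes held 235 of the 570 outside peaks (41.2%), close to the 42.8% of the combined list. The unreplicated peaks had 33.2% there. By chromosome the right part held 47.2% of outside peaks on X and 46.8% on II, but 30.1% on I. On II the left part held only 12 of 77 outside peaks.

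The stretch of X from 14 to 17 Mb, picked earlier because combined peaks are dense there, also carried outside peaks at a raised density. It held 31 of the 106 on X (29.2%, 20.8 to 38.9%), or 10.3 per Mb, 2.03 times the density on the rest of X. For combined peaks the ratio was 3.51, with 141 of 338 in the stretch. For unreplicated peaks it was 1.22. The outside peaks were uneven inside it, with 9 at 15.5 to 16 Mb and 8 each at 15 to 15.5 and 16 to 16.5 Mb, but 1 at 14.5 to 15 Mb, where 25 combined peaks lay. These densities were not tested.

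On chromosome IV the piRNA-rich domains held nearly the same share of outside peaks as of combined peaks. The windows at 4.5 to 7 Mb and over the 3.5 Mb before 17 Mb held 43 of 97 outside peaks (44.3%, 34.2 to 54.8%) and 45.2% of combined peaks, on 34.3% of the span. The unreplicated peaks had 31.9% there (27.6 to 36.6%). Most of these outside peaks sat in the right domain, with 34 there and 9 in the left one. Per Mb this was 9.71 and 3.6, and the right domain had 2.16 times the density of the rest of IV. For combined peaks that ratio was 1.70, and for unreplicated peaks 0.95. The right domain held 35.1% of outside peaks on IV (25.6 to 45.4%) and 29.9% of combined peaks (24.4 to 35.8%), so both sets were dense there. In the left domain the ratio was 0.61 for outside peaks, 1.09 for combined peaks and 0.87 for unreplicated peaks. It held 9.28% of the outside peaks on IV (4.33 to 16.9%), an interval that includes its 14.3% of the span. The pooled share of outside peaks thus joins unlike values, of which the lower is within counting error of the span. These windows were known from earlier results and were not tested.

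The right domain also contained the fullest windows for outside peaks. Of 197 windows of 500 kb, the first was IV at 14.5 to 15 Mb with 10 outside peaks and 13 combined ones. IV at 15.5 to 16 Mb and X at 15.5 to 16 Mb followed with 9 each. Tied at 8 were windows on I at 3.5 to 4 Mb, II at 12.5 to 13 Mb, III at 11 to 11.5 Mb, and X at 15 to 15.5 and 16 to 16.5 Mb. The mean was 2.84 per window, and 20 windows had none. Across the 197 windows the Spearman correlation of outside with combined counts was 0.33, and with unreplicated counts 0.38, values that share chromosome structure and libraries and carry no test.

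Most outside peaks lay several kb or more from a combined peak, and by the rule none overlapped one. The median distance to the nearest combined peak was 18.5 kb, with quartiles of 6.5 and 46.8 kb, and for unreplicated peaks the median was 22.5 kb. Within 1 kb lay 31 outside peaks (5.44%, 3.73 to 7.63%) and 4.81% of unreplicated peaks. A partner in replicate 2 that itself overlapped the combined list was found for 1 outside peak, on I at 9983613 to 9984008, which ended 1 bp short of a combined peak.

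Within 5 kb of a combined peak lay 120 outside peaks (21.1%) and 569 unreplicated peaks (19.8%). The difference was 1.23 points (95% Newcombe interval -2.26 to 5.04, two-sided Fisher's exact p = 0.492) and did not pass the test. Within 20 kb the shares were 51.9% and 46.8% (5.1 points, Fisher's exact p = 0.0275), which did not pass when adjusted over the limits of 1, 5 and 20 kb (adjusted p = 0.0826). The separate regions of the combined list had a median of 15.0 kb to their next neighbour, with 27.03% within 5 kb. Among chromosomes the median distance of outside peaks was shortest on X, at 13.4 kb, and longest on V, at 30.1 kb.

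**Figure D5:**
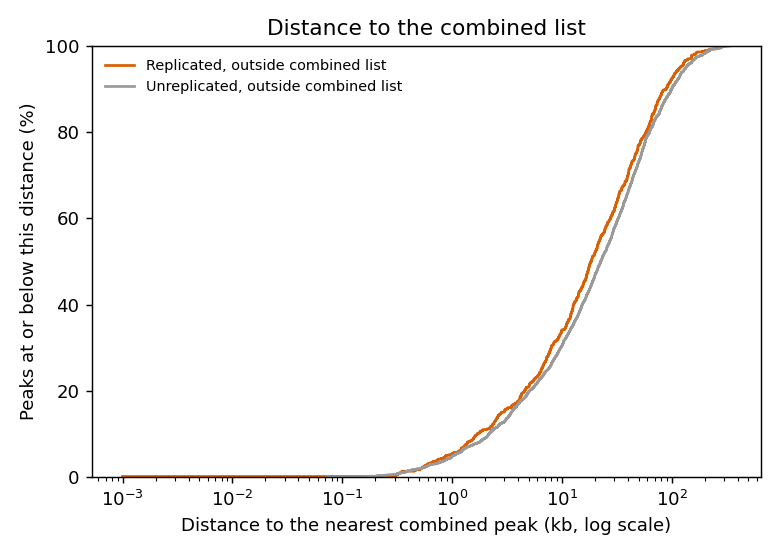
Percentage of peaks at or below a given distance to the nearest combined peak (kb, log scale) for 570 outside peaks and 2870 unreplicated peaks. The curves run close together, with medians of 18.5 and 22.5 kb.

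At the far end, outside peaks on III at 2298924 to 2299319 and at 2234198 to 2234593 lay 297.7 and 283.6 kb from any combined peak. They ranked 4667 and 2376 in replicate 1 and 2873 and 3138 in replicate 2. Both had midpoints 35 bp from their partner in replicate 2. These peaks matched closely in position although no combined peak lay near.

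Among themselves the outside peaks formed 553 separate regions, since 34 of them overlapped another. The median distance to the nearest other outside peak was 49.2 kb, and 79 (13.9%) had one within 5 kb. Split by worse rank into a stronger 285 and a weaker 285, the outside peaks changed little in their distance to the combined list. The median distance to a combined peak was 17.1 kb in the stronger set and 21.0 kb in the weaker one. X held 21.4% of the stronger and 15.8% of the weaker peaks, III held 14.04% and 20.7%, and I held 19.3% and 20.4%. These differences were not tested.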

How the data were processed

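The peak lists hold a score for each peak, deposited by the authors with no named scale, and per the file headers they are on WormBase WS220 with SPP and IDR in the source field. The aligner, thresholds, versions, use of input and derivation of the combined list are not given in the labels or headers. Samples were grouped by their titles, and the input samples entered no comparison. Peaks were ranked by score within each list, ties by peak number, and mitochondrial peaks were left out. Where several peaks overlapped, the best-ranked one was the match. Chromosome lengths were set by the final peak of either replicate (100.2 Mb in all). Distances are bases between peak edges.

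Shares were compared between sets that do not overlap, with two-sided Fisher's exact and chi-square tests, exact Clopper-Pearson 95% intervals, Newcombe intervals for differences, and Benjamini-Hochberg adjustment. Intervals cover counting error only. The overlap rule and tests were tested on simulated data, drawn independently and by chromosome length apart from planted effects. That setting cannot show how the tests behave when neighbouring peaks are not independent. The members, windows and tests were chosen with earlier results of these data known. Peaks named are the 10 with the best worse rank, the peaks on either side of the rank limit, those nearest to and farthest from a combined peak, and the fullest windows of 500 kb. Alternatives were other rank limits, reciprocal overlap, replicate 2 as the source, single replicates, merging of combined peaks, and leaving out neighbours of combined peaks or part of X. No motif or gene was assigned, as the gene table used is of another assembly. Python 3.11.15, numpy 2.4.6, pandas 2.3.3, scipy 1.17.1, statsmodels 0.14.6 and matplotlib 3.10.9 were used.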

Additional observations from a re-analysis of the deposited data

Results flagged for a closer look

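Mitochondrial peaks, which the rule left out, also replicated. Of the 25 mitochondrial peaks ranked 1 to 5000 in replicate 1, 19 overlapped one of the 23 such peaks of replicate 2, and 0 were in the combined list. They are given here because they lie outside the comparisons of the report. The best of them had a worse rank of 69 and the median was 468, better than the 1133 of the best outside peak. Input reads were not analysed here, so the part of abundant mitochondrial DNA in this was not tested.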

How the results depend on the processing

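Values here are differences in percentage points from the combined list, with two-sided Fisher's exact tests, unless stated, and the cause of each change was not tested. No paired analysis was possible because inputs entered without a list of peaks. Of 56 alternatives listed at the outset 36 left the result in place, as did 48 of 71 added with the values known. For tested results this means that the sign and the call, or the lack of a call, did not change. Differences that passed no test are thus part of these numbers, which do not show how well the calls held. The number of outside peaks was 184 with a rank limit of 3000 and 1876 with 10000. Single replicates, which drop the demand for replication, gave 3437 and 3440.

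The chi-square of 13.9 for the chromosome distribution lost its call with a rank limit of 3000 (7.19) and without X from 14 to 17 Mb (10.8), and spanned 9.18 to 18.9 in single replicates, with the call lost in replicate 1 alone. The excess on I lost its call with limits of 3000 (6.79) and 10000 (3.18), reciprocal overlap (5.19), combined peaks merged within 1 kb (4.74), X from 14 to 17 Mb left out (4.51), unreplicated peaks as the comparison (3.83) and single replicates (1.68 to 1.96). The share on X changed sign with a limit of 3000 (0.32) and ran from -4.36, a call in replicate 2 alone, to -2.14 in single replicates. Leaving out 14 to 17 Mb of X, a stretch picked for its dense combined peaks, took it to -0.18. The share on V changed sign in both (1.12 to 1.25). The share on III changed sign with a limit of 3000 (-0.77). The share on IV, near 0, turned negative with limits of 3000 (-0.65) and 10000 (-1.34), reciprocal overlap (-0.11), replicate 2 as the source (-0.23), near neighbours left out (-0.076), replicate 1 alone (-1.58, against 1.66 in replicate 2 alone) and part of X left out (-0.67).

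The middle share over all chromosomes became a call with a limit of 10000 (5.21), with replicate 2 as the source (4.69), with the middle 50% of the chromosome (5.46) and in single replicates (5.26 to 7.85), and was -5.19 against unreplicated peaks. On X the middle share lost its call with a limit of 3000 (9.01) and with part of X left out (12.3), ran from 13.4 to 16.3 in single replicates, and was -5.11 against unreplicated peaks. On the autosomes it was -0.51 under reciprocal overlap and -5.29 against unreplicated peaks, and became a call in replicate 1 alone (5.35, exact p = 0.0012). The share within 5 kb, compared with unreplicated peaks, became a call with a rank limit of 10000 (4.27) and, before adjustment over the distances only, at 20 kb (5.1). The rank correlation was 0.036 with a limit of 3000 and 0.030 with 10000. Read depth is unknown, so what it limits cannot be said.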
